A study of Mus musculus with 24 samples.

Results

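The baseline profile described here is that of hippocampal microglia from control mice, and it rests on the 12 libraries labelled wt among the 24 libraries of the series. The other 12 come from mice labelled tg, of the APPswe/PSEN1dE9 amyloid model, and they enter only a comparison of gene ranks and an alternative fit of the age test. All mice were male. The 12 control libraries fall into 3 ages, with 4 libraries each at 4, 6 and 9 months, and the labels give them no transgene, no treatment and no strain. Microglia were freed from the tissue enzymatically at 4°C and sorted as nucleated cells without propidium iodide, with high CD11b, intermediate CD45 and no CD49d at the surface, and their RNA was sequenced in bulk. Nothing in the labels ties a replicate to a single animal or to a pool, so spreads and p-values refer to these libraries and may be technical. Values are in CPM, the count of a gene scaled so that every library has the same total, given as mean ± SD over the 12 libraries or as the lowest, median and highest library. A longer transcript gives more fragments, so CPM set side by side for different genes compare counts. Levels are compared between genes only where CPM per kb of exon length are given. That length joins all annotated exons of a gene and can exceed the transcript made, so such orders are approximate.

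Microglia are the resident macrophages of the brain parenchyma. They depend on signalling through the receptor CSF1R and on TGF-beta for their identity, survey the tissue with motile processes guided by purinergic receptors such as P2RY12, and take up and digest debris in lysosomes rich in cathepsins. PU.1, the ETS-family factor encoded by Spi1, is required for their development. In disease models some microglia lower these homeostatic genes and raise a set led by Apoe, Cst7, Clec7a and Lpl, known as disease-associated microglia (DAM) genes.

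All 4 genes taken here as markers of microglia were among the 30 most counted genes in the control libraries. Cst3, which encodes the secreted protease inhibitor cystatin C, averaged 37800 ± 6540 CPM, P2ry12, the ADP receptor of microglial processes, 16630 ± 2160 CPM, Cx3cr1, the fractalkine receptor, 8848 ± 1540 CPM, and Csf1r 5159 ± 1240 CPM. All 4 were counted at every age, and Cst3 gave 55.2% of their summed counts. The markers were chosen for this report, while the cells were sorted on surface proteins, so these counts are a description. As in any bulk sample, a lower level of a marker cannot be told apart as fewer cells of a type or less RNA per cell.

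The promoters of 4 abundant genes, the markers Cst3, P2ry12 and Cx3cr1 and the cathepsin gene Ctss, are shown. With them the search for the binding core of PU.1 can be followed by eye. The remaining marker, Csf1r, had no entry in the source of the promoters. Each line is the 250 bases before the start site in the RefSeq promoter table (build GRCm38.p6, another build than the one named for the counts), read 5′ to 3′ along the gene, with matches to GAGGAA on either strand in capitals. The windows lie at chr2:148875513-148875762, minus strand (Cst3), chr3:95526536-95526785, plus strand (Ctss), chr3:59262986-59263235, minus strand (P2ry12) and chr9:120068297-120068546, minus strand (Cx3cr1).
Cst3: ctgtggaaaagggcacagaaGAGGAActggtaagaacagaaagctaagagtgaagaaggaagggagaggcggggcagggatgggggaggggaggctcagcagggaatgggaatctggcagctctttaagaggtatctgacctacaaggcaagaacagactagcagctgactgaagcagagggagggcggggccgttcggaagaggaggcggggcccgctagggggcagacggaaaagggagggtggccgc
Ctss: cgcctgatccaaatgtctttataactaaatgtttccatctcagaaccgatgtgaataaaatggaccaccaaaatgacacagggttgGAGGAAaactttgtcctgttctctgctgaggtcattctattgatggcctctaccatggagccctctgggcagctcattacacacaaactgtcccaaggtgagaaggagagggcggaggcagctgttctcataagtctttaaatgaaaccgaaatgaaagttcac
P2ry12: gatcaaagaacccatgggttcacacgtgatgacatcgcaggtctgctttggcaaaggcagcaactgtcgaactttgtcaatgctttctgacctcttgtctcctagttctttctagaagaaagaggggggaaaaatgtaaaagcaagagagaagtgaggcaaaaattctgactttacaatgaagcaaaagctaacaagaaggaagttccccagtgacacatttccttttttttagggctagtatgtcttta
Cx3cr1: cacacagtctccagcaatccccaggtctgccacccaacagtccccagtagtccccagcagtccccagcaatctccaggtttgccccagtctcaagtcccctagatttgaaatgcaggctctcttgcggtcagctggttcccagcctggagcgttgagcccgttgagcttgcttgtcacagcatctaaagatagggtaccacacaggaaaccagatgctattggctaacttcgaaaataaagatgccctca
Cst3 and the cathepsin gene Ctss held 1 match each, and the windows of P2ry12 and Cx3cr1 held none of these letters. Of the 100 genes with the highest mean CPM, 74 had a promoter in the table, and 26 of those 74 (35.1%) held GAGGAA. The share was 22.8% over 9261 promoters of genes with a mean of at least 1 CPM and 23.1% over all 27025 promoters. CCAAT was found in 44.6% of the 74, against 36.7% of the expressed and 34.5% of all promoters. TATAAA was found in 12.2%, 6.21% and 13%, and CACGTG, an E-box bound by TFEB-type factors, in 6.76%, 8.69% and 6.05%. The median GC content was 57.8% in the 74, 59.6% in the expressed and 52.0% in all promoters. No test was made of these shares, and a match is a string of letters, not a shown binding site.

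Total counts ran from 8941718 to 14198506 per library (median 9957501), and 14129 to 17534 genes had at least 1 count. A count of 3 was worth 0.211 to 0.336 CPM, which sets the floor under which a gene cannot be told from absent, for counting error only. Across 6035 genes with a mean of at least 20 CPM, Spearman's rho between libraries ran from 0.785 to 0.919 over 66 pairs, as a description. Pairs of the same age averaged 0.857 and pairs of different ages 0.854. A pair of libraries stood apart. In wt 6 months replicate 3 the fewest genes were detected, and the median rho with the others was 0.796 (others 0.843 to 0.884). Single genes there strayed from their mean over libraries with an SD of 0.648 on the log2 scale (others 0.311 to 0.469). Their deviation in that library fell with exon length (rho −0.26 across genes, others −0.082 to 0.19). In wt 4 months replicate 3 the deviation of a gene fell with its GC content (rho −0.51 across genes, others −0.17 to 0.16), with a median of −0.40 on the log2 scale in genes over 55% GC and 0.17 in genes under 45%. Both were kept, and a limit, mean, CV or count of genes given below that moves by more than 1.5 times without them is followed by its value without them.

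A small set of genes took much of the sequence. Of 53700 genes in the files, 24101 had a count in at least 1 control library and 11272 in all 12. A mean of at least 1 CPM was reached by 13436 genes, 100 CPM by 1563 and 1000 CPM by 107. The gene with the most counts, Cst3, held 3.78% ± 0.654 of a library's counts (SD, n = 12). The top 10 genes held 16.0% ± 1.22, the top 50 31.0% ± 1.15, the top 100 37.9% ± 1.22 and the top 1000 67.5% ± 1.12. In the mean profile 287 genes made up 50% of the counts and 4299 made up 90%. By library these numbers were 226 to 327 and 3777 to 4412 genes, lowest in wt 4 months replicate 3 and highest in wt 6 months replicate 1. Without both libraries that stood apart, the top 10 held 15.6% and the top 100 37.5%.

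**Figure D1:**
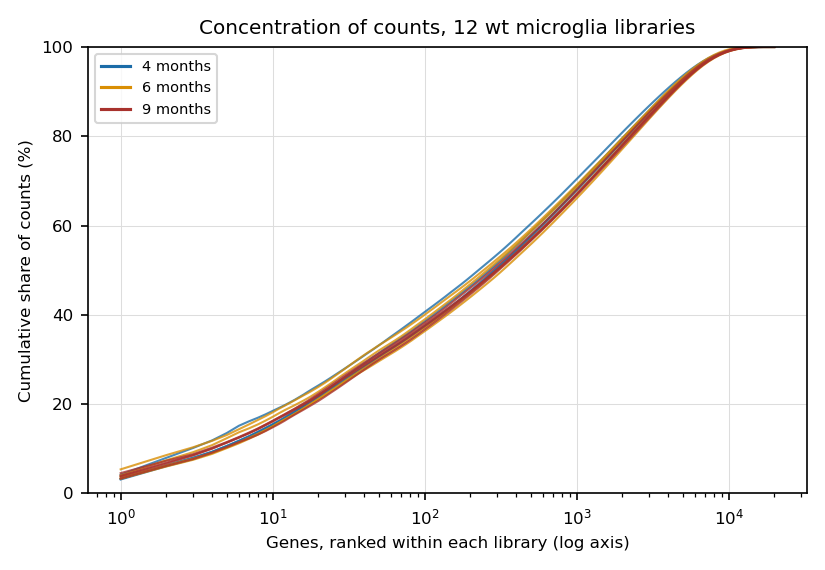
Cumulative share of counts (percent) against the number of genes, ranked within each library on a log axis, with 1 line per library coloured by age. The 12 lines run close together, and the top 100 genes hold between 36.2% and 40.0% of each library when ranked by the mean over libraries.

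Most genes at the top were shared by the libraries, while their order varied. Cst3 ranked highest in 11 of the 12, and 7 genes were in the top 10 of every library. The rank of Malat1, by contrast, ran from 6 to 28 and that of Csf1r from 13 to 41. Of the 30 genes with the highest mean CPM, 22 were in the top 30 of every library, and of the 100 highest, 74 were in every library's top 100, while 134 genes were in the top 100 of at least 1 library. The list is cut between Qk (3471 CPM, rank 30) and Actb (3324 CPM, rank 31), whose values overlap. The 11 tg libraries with usable depth, ranked in the same way, shared 29 of the top 30 and 95 of the top 100 genes. Those libraries share sorting and protocol with the controls and were not compared gene by gene here.

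Lysosomal proteins and a protease inhibitor formed a group that ran from Cst3 at rank 1 to Laptm5 at rank 23. Cst3 was at 31120 to 53840 CPM (median 37050), with the highest value in wt 6 months replicate 3. By age it averaged 33620 ± 3040 CPM at 4 months, 40900 ± 9160 at 6 months and 38880 ± 5090 at 9 months (SD, n = 4 each), and the ages overlapped. Ctss, a cathepsin of antigen-presenting cells, was at 12620 to 17540 CPM (median 14280). Lgmn, the asparagine endopeptidase legumain, was at 12160 to 16590 CPM (median 13330). Ctsd and Ctsb, the main aspartic and a main cysteine protease of lysosomes, averaged 6265 ± 974 CPM and 5723 ± 733 CPM, and Psap, the precursor of the saposins, 4840 ± 690 CPM. Laptm5, a lysosomal membrane protein of blood-lineage cells, averaged 4594 ± 598 CPM. Per kb of exon the order of these was Cst3 (29860), Ctss (10700), Lgmn (5854), Ctsd (2665), Psap (1764), Laptm5 (1213) and Ctsb (946 CPM per kb).

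Receptors and other proteins of the microglial surface lay among them, from P2ry12 at rank 3 to Gpr34 at rank 24. P2ry12 was at 14400 to 22090 CPM (median 16370) and P2ry13, a related ADP receptor, at 4017 to 5819 CPM (median 4932). Cx3cr1 was at 5780 to 10920 CPM (median 8870) and Csf1r at 2600 to 6966 CPM (median 5053), and for both the lowest value was that of wt 4 months replicate 3. Without that library the lowest was 6714 CPM for Cx3cr1 and 4121 CPM for Csf1r. Selplg, the P-selectin ligand, averaged 8925 ± 700 CPM, Cd81, a tetraspanin, 8222 ± 955 CPM, Tmem119, a membrane protein of microglia, 5725 ± 1150 CPM, Gpr34, a lysophosphatidylserine receptor, 4291 ± 596 CPM, and Fcrls, an Fc receptor-like protein of microglia, 4722 ± 371 CPM. Tmem119 was lowest in wt 4 months replicate 3, at 3286 CPM against 4908 to 7201 CPM in the other 11, and Gpr34 was highest there, at 5987 against 3820 to 4815 CPM.

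Complement, secreted, structural and other genes were interleaved with both groups, from C1qb at rank 7 to Qk at rank 30. The 3 chains of C1q, the recognition molecule of the classical complement pathway, averaged 9092 ± 839 CPM (C1qb), 5484 ± 1400 CPM (C1qc) and 3649 ± 507 CPM (C1qa). Per kb of exon they stood at 8357, 2840 and 3508 CPM per kb, so that C1qa lay above C1qc. C1qb was at 7702 to 11020 CPM (median 9021) and C1qc at 2326 to 7419 CPM (median 5703), and without wt 4 months replicate 3 the lowest C1qc was 4021 CPM. Sparc, a matrix protein, averaged 5226 ± 682 CPM, Selenop, the selenium carrier, 3835 ± 240 CPM, Trf, transferrin, 3928 ± 388 CPM, and Itm2b, a membrane protein also called BRI2, 7959 ± 464 CPM. Tmsb4x, the actin-sequestering thymosin beta 4, averaged 5103 ± 683 CPM, Fcgr3, an activating IgG receptor, 3839 ± 285 CPM, and Qk, an RNA-binding protein, 3471 ± 878 CPM. Malat1, a nuclear long non-coding RNA, was at 3693 to 11400 CPM (median 6857) and spread more than the proteins around it.

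**Figure D2:**
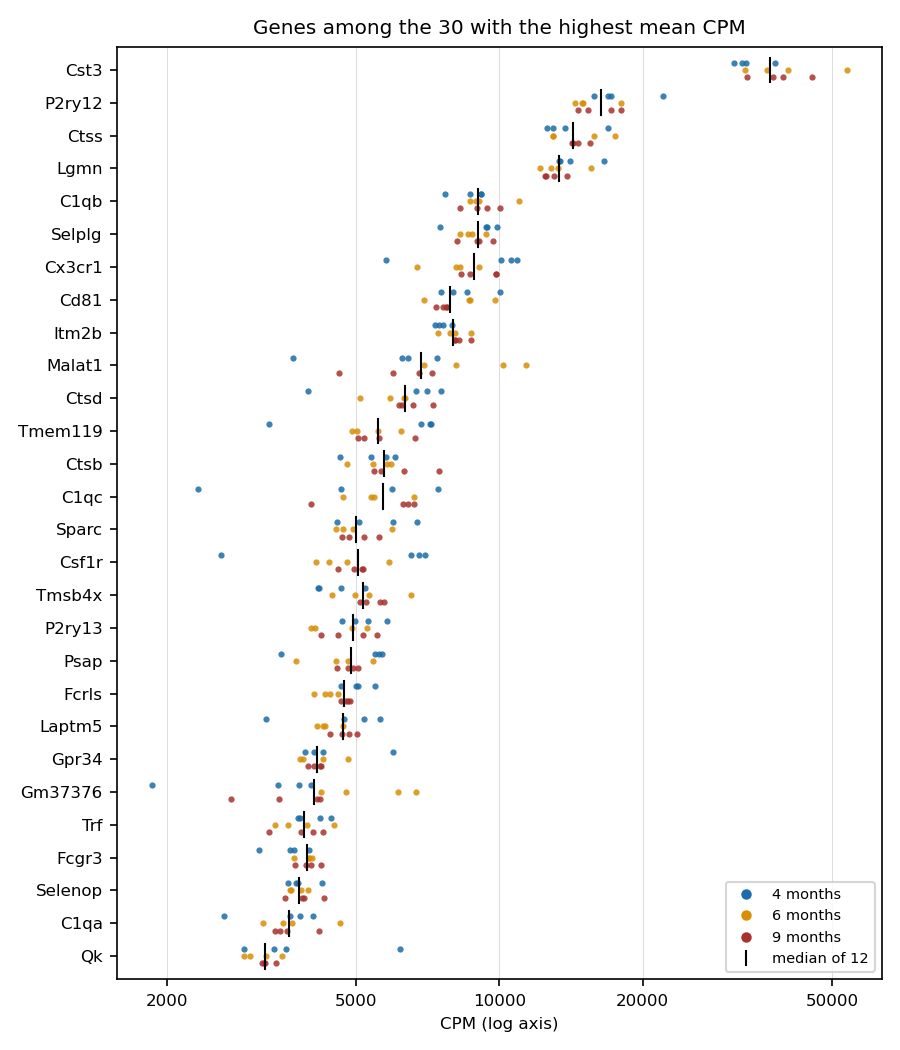
CPM (log axis) of the genes reported here among the 30 with the highest mean, with 1 point per control library coloured by age and a black bar at the median of 12. Cst3 lies above the other genes shown, and the low points of C1qc, Csf1r and Tmem119 are those of wt 4 months replicate 3.

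Several entries of the list overlap a neighbouring gene. Gm37376 (4120 ± 1320 CPM), a provisional entry in the GENCODE vM21 annotation, overlaps Malat1 on the opposite strand and stood at 0.505 to 0.613 of its count in every library, a ratio with a CV (SD over mean) of 5.38% where Gm37376 itself had a CV of 32.0%. Ccdc152 (1257 ± 81.2 CPM) overlaps Selenop and stood at 0.296 to 0.382 of its count. In all, 17 such pairs were found around the top 100 genes, 16 of them on opposite strands. The labels and headers give no strand setting for the counting, and without it reads of a gene and its antisense partner cannot be told apart, so the levels of these partners are uncertain.

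Ranking by CPM per kb kept 23 of the top 30 and 72 of the top 100 genes. Among the 10 highest by that scale were Cst3 (29860), Ctss (10700), Gm37376 (9094), C1qb (8357), P2ry12 (6531), Lgmn (5854), Tmsb4x (3722), B2m (3535) and C1qa (3508 CPM per kb). B2m, the light chain of MHC class I, was thus in the top 10 per length and at rank 35 by CPM. Csf1r, Ctsb, Malat1 and Qk were among those below rank 30 per length, and Qk, with its long transcript, fell to rank 181.

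The homeostatic genes were detected without exception. They were listed as genes of microglia, with earlier results of these data known, so their detection is no finding. All 31 listed genes found in the files had a mean of at least 100 CPM, and 21 had at least 1000 CPM. Together they held 15.6% of all counts, with sums of 143300 to 166600 CPM (median 157400) and a CV of 4.99%. Cst3 alone gave 24.2% of the counts of this list. For comparison, the median over the 13436 genes with at least 1 CPM was 16.1 CPM and over this list 1880 CPM, as counts not scaled to length. Near the lower end stood Crybb1, a crystallin gene of developing and adult microglia (309 ± 55.4 CPM). Olfml3, a secreted olfactomedin (3076 ± 316 CPM), Trem2, the lipid-sensing receptor (2148 ± 256 CPM), and Siglech, a sialic acid-binding lectin (1298 ± 138 CPM), lay between.

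Transcription factors had fewer counts. Of 36 listed, 34 had a mean of at least 1 CPM and 20 of at least 100 CPM, and none reached 1000 CPM. The most counted were Mef2c (863 ± 97.6 CPM), Maf (599.8 ± 118 CPM), Irf8 (528 ± 64.5 CPM) and Fli1 (486 ± 97.5 CPM), all factors of myeloid or microglial gene programmes. Sall1, a zinc-finger factor of microglial identity, averaged 428 ± 59.7 CPM. Spi1 averaged 236 ± 91.0 CPM, with 58.3 to 346 CPM (median 279), and its lowest library was 113 CPM without wt 4 months replicate 3 and 150.1 CPM without both libraries that stood apart. On the approximate scale per kb of exon, Fli1 (139.5) stood above Spi1 (87.6), Sall1 (81.3), Irf8 (74.9) and Maf (72.8 CPM per kb). Klf2, Klf4 and Cebpb averaged 1.13, 1.13 and 1.05 CPM, and Nr1h3, the receptor LXR-alpha, 0.953 CPM (0.507 CPM without wt 6 months replicate 3).

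Genes of the receptors that maintain microglia were counted at higher levels per length than genes of their ligands. In CSF1R signalling, Csf1r stood beside its adaptor Tyrobp (904 ± 172 CPM) and the phosphatase Inpp5d (385 ± 78.8 CPM). Per kb, Csf1r was at 894 CPM and the ligand gene Csf1 at 3.17 CPM (16.7 ± 13.9 CPM unscaled). The other ligand gene, Il34, had 0 counts in all 12 libraries, which allows up to 0.211 to 0.336 CPM, depending on the library. In TGF-beta signalling, the receptor genes Tgfbr1 and Tgfbr2 averaged 1882 ± 370 CPM and 434 ± 66.9 CPM, and Nrros, which tethers latent TGF-beta on microglia, 551 ± 160 CPM. By age, Tgfbr1 averaged 2292 ± 203 CPM at 4 months, 1647 ± 300 at 6 months and 1708 ± 178 at 9 months (SD, n = 4 each). The list summed to 4365 ± 285, 3268 ± 253 and 3566 ± 291 CPM at these ages. The ligand gene Tgfb1 averaged 10.1 ± 3.42 CPM, or 2.01 CPM per kb against 288 for Tgfbr1. The transducers Smad2, Smad3 and Smad4 averaged 54.1, 59.8 and 17.1 CPM.

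Purinergic receptors held 2.25% of the counts, 16630 CPM of it P2ry12. Of 13 listed genes 6 had at least 100 CPM. After P2ry12 and P2ry13 came P2ry6, the UDP receptor of phagocytosis (518 ± 71.7 CPM), the adenosine receptor Adora3 (199 ± 31.8 CPM), and the ATP-gated channels P2rx7 (189 ± 39.7 CPM) and P2rx4 (113 ± 15.1 CPM). Adora2a had 0 counts in all libraries, and P2ry1, P2ry2, P2ry14 and Adora2b averaged under 1 CPM. Of 15 chemokine receptor genes 2 had at least 100 CPM, and Cx3cr1 gave 91.0% of the summed counts. Ccr1 averaged 20.3 ± 7.73 CPM, and Ccr7 and Ackr1 had 0 counts. The sum was 6567 to 11910 CPM (median 9762), lowest in wt 4 months replicate 3 as for Cx3cr1.

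Innate sensing genes were counted broadly but unequally. Of 20 Toll-like receptors and adaptors, 18 had at least 1 CPM, and the most counted were the co-receptor Cd14 (1461 ± 159 CPM), the trafficking factor Unc93b1 (1419 ± 256 CPM) and Ly86 (1376 ± 186 CPM). Among the receptors themselves, the RNA sensors Tlr13 and Tlr7 averaged 424 ± 108 CPM and 378 ± 58.9 CPM, Tlr2, Tlr4 and Tlr3 199, 164 and 155 CPM, and Tlr9 4.70, Tlr8 0.779 and Tlr11 0.0604 CPM. Fc receptors summed to 11340 to 12760 CPM (median 12080), with the lowest CV of the lists of receptors at 3.47%. The common gamma chain Fcer1g averaged 1887 ± 288 CPM, the inhibitory Fcgr2b 646 ± 36.9 CPM, the high-affinity Fcgr1 517 ± 63.6 CPM and Fcgr4 11.03 ± 5.78 CPM. Per kb, Fcgr3 (2211), Fcer1g (2159) and Fcrls (2023 CPM per kb) stood close together.

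Complement counts were led by the chains of C1q. The list of 20 summed to 16790 to 24180 CPM (median 22090). Beside C1q, the anaphylatoxin receptors C3ar1 and C5ar1 averaged 798 ± 97.8 CPM and 321 ± 38.7 CPM, and the chains of complement receptor 3, Itgam and Itgb2, 304 ± 68.9 CPM and 754 ± 116 CPM. Itgam encodes CD11b, on which the cells were sorted, so its presence is no finding, and the same holds for the low level of Itga4 (CD49d, 0.873 CPM). The central component C3 averaged 0.494 CPM (0 to 2.82), C4b 0.844 and C2 0.555 CPM, and C1s1, Vsig4 and Cfd had 0 counts in all 12 libraries.

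Most inflammatory genes had few counts, and antigen-presentation genes were counted unequally. Of 21 listed cytokine, inflammasome and NF-kappaB feedback genes 3 had at least 100 CPM, namely the adaptor gene Pycard (550.3 ± 48.9 CPM), Il1a (146 ± 32.9 CPM) and the inhibitor gene Nfkbia (140.3 ± 38.7 CPM). Casp1 averaged 51.7 ± 11.9 CPM and Il18 28.7 ± 4.54 CPM. Il6 averaged 5.03 CPM, Il1b 3.03 CPM (0 to 11.8) and Tnf 0.454 CPM, while Il10, Il12a, Il12b, Ifnb1, Lif and Nos2 had 0 counts. Among 25 chemokines, Ccl6 (503 ± 100 CPM), Ccl9 (257 ± 45.9 CPM) and Cxcl16 (149.7 ± 20.5 CPM) exceeded 100 CPM, Ccl3 and Ccl4 averaged 31.9 and 40.6 CPM, and Cxcl1, Cxcl2, Cxcl3, Ccl17 and Ppbp had 0 counts. Immediate early genes, which respond within minutes to stimulation and to tissue dissociation, summed to 1354 to 2027 CPM (median 1598). The 5 of 28 with at least 100 CPM were Rhob, Btg2, Klf6, Zfp36 and Junb, at 403, 386, 313, 168 and 127 CPM, and Jun averaged 99.6 CPM, whereas Fos averaged 2.09, Egr1 2.45 and Nr4a1 0.942 CPM, and Fosb and Fosl1 had 0 counts. MHC class I genes summed to 4503 to 6353 CPM (median 4844), of which B2m averaged 3040 ± 520 CPM and H2-D1 586 ± 106 CPM. MHC class II genes summed to 856 to 2081 CPM (median 1445), with the invariant chain Cd74 at 464 ± 235 CPM, the peptide-loading subunit H2-DMa at 334 ± 39.2 CPM and H2-Aa at 103 ± 68.3 CPM, and the interferon-response genes to 432 to 843 CPM (median 485), led by Bst2 (126 ± 31.5 CPM) and Irf9 (105 ± 13.8 CPM). Both of these had wide spreads, with CVs of 27.5% and 24%.

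Lysosomal genes beyond the top of the list were counted widely as well. The 36 lysosomal enzymes and membrane proteins found held 7.05% of the counts and the 13 cathepsins 3.59%. Of the cathepsins 10 had at least 100 CPM, and the other 3, Ctsw, Ctse and Ctsk, averaged 0.783, 0.461 and 0.253 CPM. The cathepsin sum had a CV of 4.76%, with 33270 to 39260 CPM (median 35690). The subunits of the proton pump that acidifies lysosomes, the V-ATPase, summed to 3872 to 4378 CPM (median 4011), 14 of 17 at 100 CPM or more, and its osteoclast subunit gene Atp6v0d2 had 0 counts.

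Genes of the DAM set were present in these control libraries at unequal levels. Of 28 listed, 27 had at least 1 CPM and 9 at least 1000 CPM, and the latter include the lysosomal and surface genes Ctsd, Ctsb, Ctsz, Cd68, Trem2 and Cd9. Apoe, the lipid carrier, was at 607 to 3642 CPM (median 1217), highest in wt 9 months replicate 1 and lowest in wt 4 months replicate 3, without which the lowest was 951 CPM. Cst7, cystatin F, was at 294 CPM in wt 9 months replicate 1 and at 4.88 to 30.8 CPM in the other 11 libraries. In the same library Clec7a, the receptor Dectin-1, was at 165 CPM and at 7.17 to 43.8 CPM in the others, and the sum of interferon-response genes was highest as well. Spp1 averaged 10.1 ± 10.5 CPM, Itgax 5.66 ± 6.11 CPM, Igf1 3.39 ± 5.85 CPM and Gpnmb 1.44 ± 4.31 CPM. Of 33 mouse orthologues of genes near human Alzheimer risk loci, 32 had at least 1 CPM and 19 at least 100 CPM, among them Trem2, Apoe, Grn (1598 ± 256 CPM), Abi3 (646 ± 135 CPM), Bin1 (399.6 ± 70.5 CPM) and Cd33 (393 ± 68.1 CPM), while Clu averaged 39.9 ± 29.1 CPM and Abca7 8.90 ± 4.10 CPM.

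**Figure D3:**
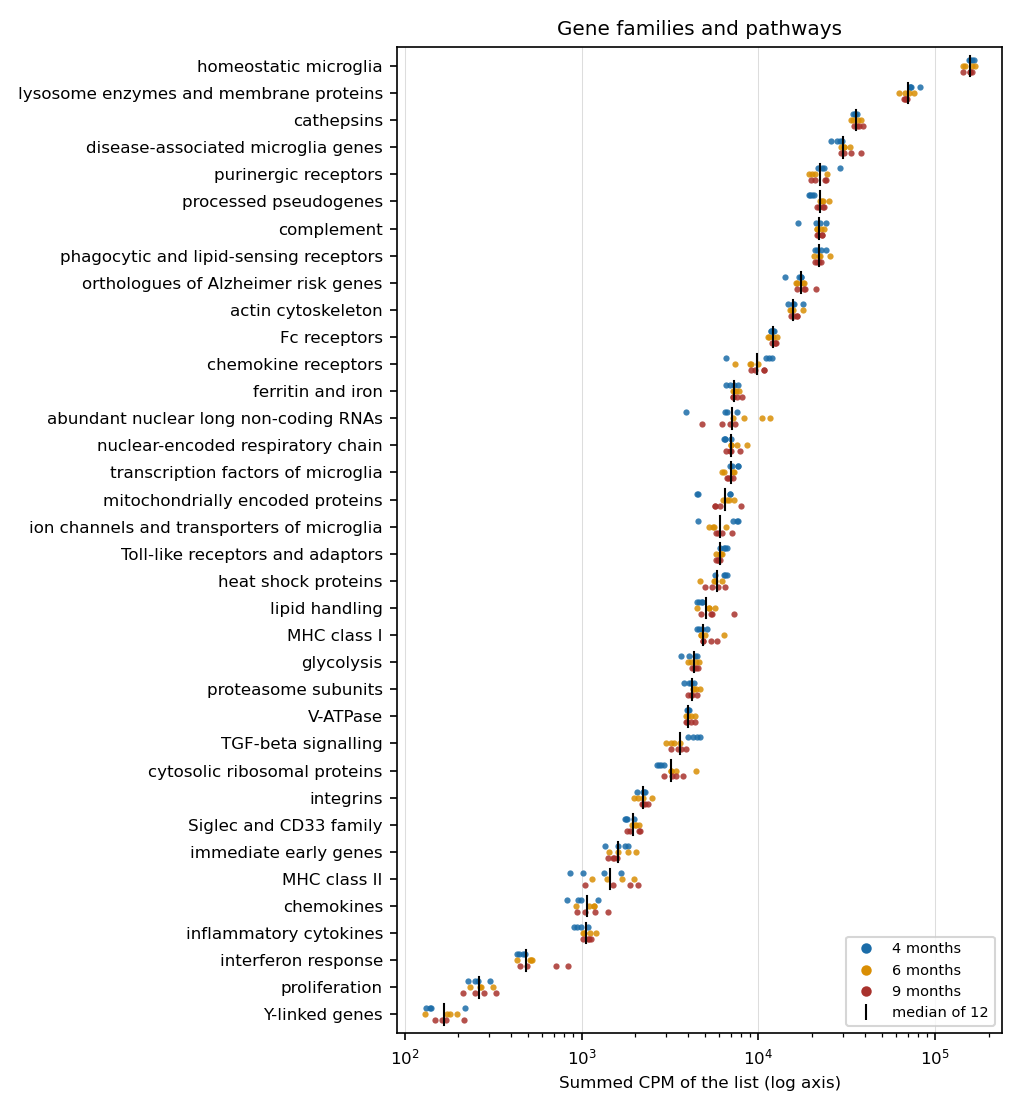
Summed CPM (log axis) of gene lists, with 1 point per control library coloured by age and a black bar at the median of 12. Homeostatic genes (143300 to 166600 CPM) and lysosomal genes lie at the top, and cytokines, interferon-response and proliferation genes at the bottom.

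Phagocytic receptor, adhesion and transport genes ranged widely in their counts. Of 26 phagocytic and lipid-sensing receptors and partners, 18 had at least 100 CPM, among them Cd68, a lysosomal scavenger protein (2377 ± 297 CPM), Pros1, a bridging ligand of apoptotic cells (1247 ± 291 CPM), Sirpa, the receptor for CD47 (1157 ± 188 CPM), and Mertk, a receptor for such ligands (349 ± 63.7 CPM). The related receptor genes Axl and Tyro3 averaged 11.7 and 1.03 CPM, the scavenger receptor genes Cd36 and Msr1 6.91 and 2.73 CPM, Timd4 0.351 CPM, and Marco had 0 counts. Of 14 integrin genes, the most counted were Itgb2, Itgb5 (471 ± 78.1 CPM), Itgam, Itgb1 (248 ± 39.6 CPM) and Itga6 (237 ± 33.9 CPM), while Itgal and Itgb7 averaged 0.36 and 0.288 CPM. Among channels and transporters, the organic anion carrier Slco2b1 was at 789 to 2794 CPM (median 1703), the fructose transporter Slc2a5 averaged 1425 ± 146 CPM, the proton channel Hvcn1 256 ± 60.8 CPM, and Kcnk13, the potassium channel THIK-1, 141 ± 25.7 CPM, whereas Kcna3 (Kv1.3) averaged 0.407 CPM. Slco2b1 was lowest in the library in which levels fell with GC content, at 789 CPM, and without both libraries that stood apart its lowest value was 1337 CPM.

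Iron, lipid and stress genes were represented by a few members each. Beside transferrin, both ferritin chains Fth1 and Ftl1 (1382 ± 235 CPM and 1177 ± 185 CPM) and the iron exporter Slc40a1 (564 ± 108 CPM) were counted, with the transferrin receptor Tfrc at 14.1 ± 6.82 CPM and Hmox1, heme oxygenase 1, at 25.8 ± 9.80 CPM. Ftl1 and Fth1 have near-identical copies in the genome. In lipid handling, the sterol exporters Abcg1 and Abca1 averaged 832 ± 218 CPM and 245 CPM, the lysosomal sterol carrier Npc2 1275 ± 136 CPM and the lysosomal lipase Lipa 373 ± 52.0 CPM, while Vldlr, Pparg and Fabp5 averaged 0.687, 0.227 and 0.672 CPM. Lpl was at 5.13 to 59.3 CPM (median 18.6), and its highest library, wt 9 months replicate 1, was the one with the highest Apoe and Cst7. Chaperones of the endoplasmic reticulum, Hspa5 (2326 ± 366 CPM) and Hsp90b1 (1606 ± 150 CPM), had more counts per kb (549.9 and 398) than the heat-inducible Hsp90aa1 (13.04 CPM per kb). Hspa1a and Hspa1b averaged 12.4 and 0.278 CPM, whereas the related Hsp90ab1 averaged 1012 CPM without both libraries that stood apart. Actin regulators included Pfn1, profilin (1547 ± 185 CPM), Lcp1, plastin (1064 ± 173 CPM), and Aif1, which encodes the microglial antigen IBA1 (782 ± 86.2 CPM), and 16 of the 21 listed had at least 100 CPM.

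Housekeeping families were unevenly counted. The 79 cytosolic ribosomal protein genes summed to 2665 to 4414 CPM (median 3202), or 0.323% of the counts, with a median member at 8.99 CPM. Entries that GENCODE vM21 names processed pseudogenes, copies of spliced transcripts, summed to 19320 to 24900 CPM (median 22220), or 2.19%, and 1064 of them had at least 1 CPM. The most counted was Gm15459 (715 ± 144 CPM). Gapdh, a glycolytic enzyme abundant in most cells, averaged 3.33 CPM (1.68 to 5.79), Actg1 31.9 ± 8.54 CPM, Pgk1 8.08 ± 2.56 CPM, Actb 3324 ± 942 CPM and Aldoa 606 ± 88.8 CPM. Per kb of exon, Gapdh stood at 0.805, Aldoa at 208 and Actb at 1241 CPM per kb. Of the 13 protein genes of the mitochondrial genome, mt-Cytb averaged 3136 ± 441 CPM, mt-Co1 1100 ± 220 CPM and mt-Nd1 799 ± 145 CPM, whereas mt-Co2, mt-Co3 and mt-Atp6 averaged 0.0524, 0.147 and 1.62 CPM and mt-Atp8 had 0 counts. Neither labels nor headers say how the counting treated reads with several alignments, so the levels of genes with near-identical copies in the genome are uncertain, and the part of such reads in these values was not tested. Respiratory-chain genes of the nucleus summed to 6406 to 8657 CPM (median 6978) and proteasome subunits to 3800 to 4703 CPM (median 4219).

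Proliferation genes summed to 214 to 327 CPM (median 263). Mki67 averaged 2.96 ± 1.59 CPM and Top2a 9.27 ± 6.81 CPM, and the highest was the replication helicase gene Mcm3 (74.8 ± 21.7 CPM). The 4 Y-linked genes were counted in every library (130.1 to 218 CPM) and Xist averaged 0.0178 CPM, as the male label has it.

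Markers of other cell types had few counts, but not equally so. The 4 microglial markers summed to 61720 to 79340 CPM, and Cst3 alone gave 55.2% of their counts. Their highest sum was that of wt 6 months replicate 3, where Cst3 was highest (53840 CPM) and P2ry12 lowest (14400 CPM). Neuronal markers summed to 19.5 to 93.3 CPM (median 47.0), vascular and fibroblast markers to 38.5 to 77.2 CPM (median 60.8) and monocyte markers to 5.24 to 39.3 CPM (median 21.6). The monocyte gene Ccr2 averaged 8.20 ± 5.07 CPM, and Ly6c2 0.546 CPM. Markers of border-associated macrophages summed to 693 to 1071 CPM (median 837), but Maf and Stab1, which microglia also express, gave most of it, and the defining Mrc1, Pf4, Cd163 and Lyve1 averaged 16.6, 6.37, 4.91 and 1.24 CPM. Astrocyte markers summed to 807 to 1208 CPM (median 1121), nearly all of it Glul (658 ± 88.1 CPM) and Slc1a3 (345 ± 57.2 CPM), while Gfap averaged 7.67 and Aqp4 1.20 CPM. The lymphocyte list summed to 972 to 1369 CPM (median 1094), mostly from Ighm (915 to 1293 CPM) and Cd79b (81.6 ± 24.4 CPM), whereas Cd79a, Cd3e, Cd3g and Cd8a had 0 counts in all 12 libraries.

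A few signals of other cell types differed between libraries by large factors. Ttr, transthyretin of the choroid plexus, was at 0 to 1990 CPM (median 504), and Enpp2, an enzyme of the same epithelium that oligodendrocytes also make, at 2.62 to 1367 CPM (median 577). Both were lowest in wt 6 months replicate 3 (0 and 2.62 CPM) and wt 9 months replicate 5 (0 and 7.18 CPM), so that 7.18 CPM was the lowest Enpp2 without wt 6 months replicate 3, and both were highest in wt 9 months replicate 3 (1990 and 1367 CPM). Of the other choroid plexus markers, Folr1 and Kl averaged 13.8 and 6.49 CPM. The list of 10 summed to 1240 CPM on average, of which Ttr gave 626 and Enpp2 571 CPM. Oligodendrocyte markers summed to 167 to 689 CPM (median 313), with Mbp at 10.7 to 182 CPM (median 52.2). Neutrophil markers summed to 2.81 to 251 CPM (median 95.1), led by S100a8 (36.6 ± 30.6 CPM), while Elane and Mpo had 0 counts. Erythrocyte markers were at most 3.21 CPM in 9 libraries and at 26.0, 29.2 and 70.4 CPM in 3 of the 4 libraries of 9 months. The part of other cells in the levels of microglial genes was not tested.

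**Figure D4:**
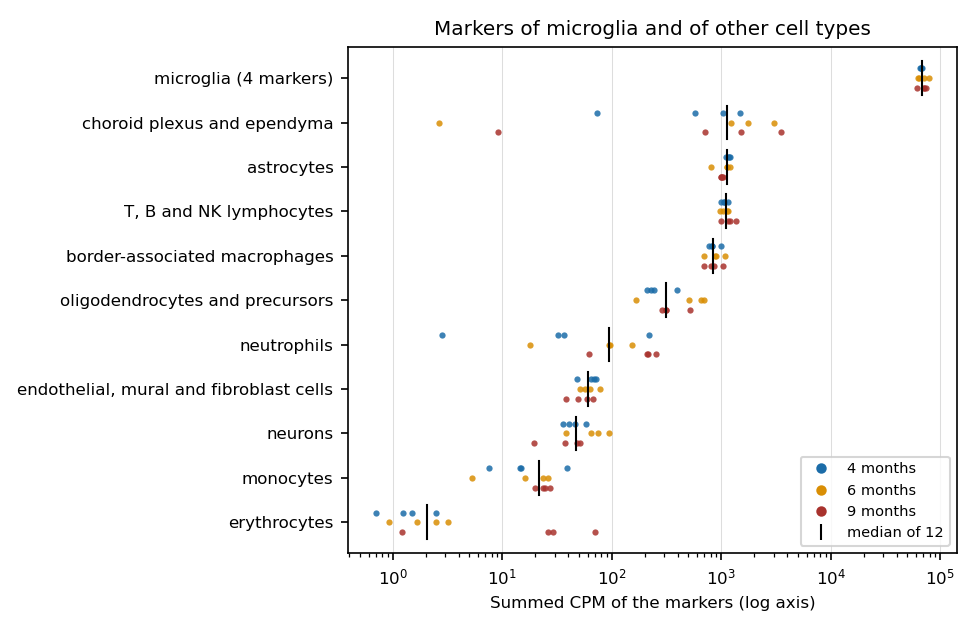
Summed CPM (log axis) of the markers of microglia and of 10 other cell classes, with 1 point per control library coloured by age and a black bar at the median of 12. The microglial markers lie far to the right, and choroid plexus markers range from 2.62 CPM (9.03 CPM without wt 6 months replicate 3) to 3513 CPM.

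The spread between libraries was many times the counting error. Over the 1563 genes with a mean of at least 100 CPM the median CV was 18.2%, while counting error alone would give 2.2%, and without both libraries that stood apart the median CV was 15.6%. The CV fell with the level, with medians of 70.1% for genes of 1 to 10 CPM, 33.1% for 10 to 100 CPM, 18.5% for 100 to 1000 CPM and 13% above. The 2 libraries that stood apart gave many of the extremes. Of the 1563 genes, wt 6 months replicate 3 was the highest library for 17.9% and the lowest for 20.5%, and wt 4 months replicate 3 for 15.7% and 16.8%, whereas each of the other 10 was the highest for 4.54% to 8.13%.

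The steadiest genes included receptors and secreted proteins of the microglial profile. The lowest CVs were those of Fcgr2b (5.71%, 571 to 711 CPM), Itm2b (5.82%), Ppp1ca, a phosphatase catalytic subunit (6.18%), Tpp1, a lysosomal peptidase (6.24%), and Selenop (6.25%). Ccdc152, which overlaps Selenop, followed with 6.47% (3.47% without both libraries that stood apart), then Rnase4, a secreted ribonuclease (6.53%), Cd84, a SLAM-family receptor (7.07%), Sdf4, a calcium-binding protein of the Golgi (7.11%), and Gdi2, a Rab regulator (7.14%). In all, 93 genes had a CV under 10% and 12 a CV over 50%, and without both libraries that stood apart these counts were 227 and 6 of 1574 genes. The highest CV was that of Ttr (100%), with Enpp2 (81.8%) also among the 10 highest. Map3k1, a MAP kinase kinase kinase (99.7%), was at 34.4 to 375 CPM (median 54.1), and Serinc3, a serine incorporator family gene (76.6%), at 181 to 1283 CPM (median 299.5), both highest in wt 4 months replicate 3. Without that library the highest was 209 CPM for Map3k1 and 617 CPM for Serinc3, whose CV was then 47.9%. H2-Aa (66.6%) and Junb, an AP-1 subunit (57.2%), were lowest in that library, at 16.1 and 13.6 CPM, and without it the lowest values were 26.6 and 48.6 CPM. Numb, a Notch regulator (62.5%), Apoe (51.4%) and Vapa, a membrane-contact protein (51.1%), were among the 10 as well. The order within either group is a description, since neighbours differ by little. Membership of the lowest group also depends on the 2 libraries that stood apart. Without both, C1qb (5.31%) and Selplg (5.78%), which are not in it, had lower CVs than Fcgr2b (6.22%).

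**Figure D5:**
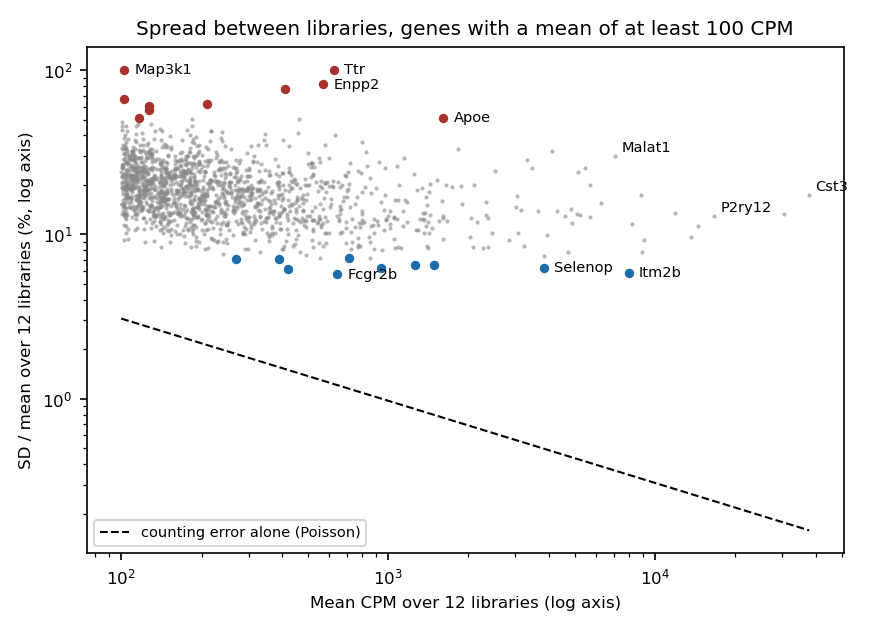
SD over mean across the 12 control libraries (percent, log axis) against mean CPM (log axis) for 1563 genes with a mean of at least 100 CPM, with the 10 lowest in blue, the 10 highest in red and the Poisson counting error as a dashed line. Every gene lies above the dashed line, and Ttr, Map3k1 and Enpp2 lie highest.

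Age changed no gene past the threshold in the edgeR test. With edgeR's quasi-likelihood F test over the 3 ages, 0 of 13850 genes tested were called at an adjusted p under 0.05 (0% called), the smallest adjusted p was 0.858, and 658 genes had an unadjusted p under 0.05. DESeq2's likelihood ratio test gave an adjusted p for 13293 of these genes and called 37, and limma-voom 0 with 1040 under 0.05 unadjusted. Among the 37 were Tgfbr1 and Actb (DESeq2 adjusted p = 0.0451 each, edgeR adjusted p = 0.94 and 0.96), both highest on average at 4 months. Of the 30 top genes, Cst3 had an unadjusted p of 0.408, P2ry12 0.0992 and Ctss 0.962 in the edgeR test, and among all 30 it was lowest for Fcrls (0.012), Gm37376 (0.0178) and Malat1 (0.0224), each with adjusted p of 0.858 or more. Of the 31 homeostatic genes 2 had an unadjusted p under 0.05 and of the 26 DAM genes tested 7, against 658 of all 13850, without a test of the list. The DAM genes summed to 25720 to 37930 CPM (median 30090), highest in wt 9 months replicate 1. The biological coefficient of variation that edgeR fitted to all tested genes was 61.4%. A miss of the threshold does not show that the ages are alike. In 1 leave-one-out fit, without wt 4 months replicate 4, edgeR called Numb (adjusted p = 0.0309), which in the fit of all 12 had an adjusted p of 0.944 by edgeR and was among the 37 called by DESeq2 (adjusted p = 0.00813). Numb was at 462, 429, 345 and 103 CPM in the 4 libraries of 4 months, replicate 4 the lowest, at 108 to 214 CPM at 6 months and at 103 to 127 CPM at 9 months.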

How the data were processed

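Per the labels' protocols, RNA of the sorted cells went into a low-input library kit (NEBNext) and then onto a NovaSeq6000. The authors deposited raw counts per gene for each library, and per the submitters' processing notes FastQC 0.11.9, cutadapt 2.10, TopHat, SAMtools 1.10, Picard 2.13.2, HTSeq 0.11.0 and the GRCm39 build were used, with no role or order stated. The series table held the same counts summed by symbol.

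Counts were scaled to library totals (CPM), ranked by their mean over the 12 wt libraries and summed over gene lists. Exon lengths, GC content, gene classes and overlaps came from GENCODE vM21. It is of another build, so they are approximate for these counts. Exon length joined the exons of all annotated transcripts of a gene, whichever of them the cells make. No table of coding lengths was given, so exon length took its place.

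Age was tested in R 4.3.3 with edgeR 4.0.16: filterByExpr, TMM factors and a robust quasi-likelihood F test over the 3 ages, Benjamini-Hochberg adjustment over 13850 genes, called under 0.05. Alternatives used DESeq2 1.42.0 and limma 3.58.1. The fit was tested on simulated counts.

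Named genes are the top 30 by CPM, the 4 markers, up to 4 leading members of each list with any singled out as low, and the 10 highest and lowest CVs. Some further members of the lists are named as examples, chosen after their values were seen. Members and lists were chosen with earlier results of these data known. Look-alike symbols (such as H19 among histones) were removed from pattern-based families after their values were seen. The labels do not explain the replicate name 2_4 of a 9-month library, which was kept as 1 library. Some genes that the rule names are not reported here, but they stay in the totals, ranks and list sums.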

Additional observations from a re-analysis of the deposited data

Results flagged for a closer look

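Within each age, the highest or lowest of the 4 libraries was set against the other 3 for library measures, list sums and the genes reported here among the top 30. Of 270 such groups of 4, 22 held a library far from the others by Dixon's ratio, and chance alone flags about 1 group in 20. The groups overlap, so the 22 are not separate signals and were not tested against that rate. Csf1r gave 69.0% of the counts of CSF1R signalling and Cx3cr1 91.0% of those of chemokine receptors, and both genes and both lists were flagged.

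Of the 22, 13 came from wt 4 months replicate 3, the library in which levels fell with GC content. Its top 10 genes held 18.25% of counts, against 15.25% to 15.5% in the other 3 libraries of 4 months. It was high for Gpr34 (5987 CPM against 3917 to 4268). It was low for Cx3cr1 (5780 against 10070 to 10920), Tmem119 (3286 against 6845 to 7201), Csf1r (2600 against 6512 to 6966) and Psap (3485 against 5474 to 5673). In this library the summed CPM was 4240 for CSF1R signalling, 6567 for chemokine receptors, 14160 for orthologues of Alzheimer risk genes and 4558 for ion channels and transporters, all below the other 3. It was 81750 for lysosomal genes, 218.2 for Y-linked genes and 6985 for nuclear respiratory-chain genes, all above them.

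In wt 6 months replicate 3, MHC class I genes summed to 6353 CPM (others of that age 4730 to 4986) and C1qb was at 11020 CPM (8681 to 9047). Levels in that library fell with exon length, and the part of this trend in both values was not tested. Interferon-response genes summed to 431.9 CPM in wt 6 months replicate 2 (511.6 to 524.0), and P2ry12 was at 18040 CPM in replicate 4 of that age (14400 to 14970). In wt 4 months replicate 2, neutrophil markers summed to 219.3 CPM (2.81 to 36.4) and S100 genes to 126.3 CPM (61.6 to 66.9). In wt 9 months replicate 1, the top 10 genes held 14.71% of counts (16.04% to 16.18%). In wt 9 months replicate 3, oligodendrocyte markers summed to 520.0 CPM (286.8 to 315.0), and C1qc was at 4021 CPM (6267 to 6621).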

How the results depend on the processing

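The count of genes called by age was 0 with limma-voom, with totals or RLE factors for scaling, unfiltered or with 1 CPM required in 4 libraries, in the fit of all 24 libraries, at a limit of 0.01 and without both libraries that stood apart (an alternative chosen after seeing the data). DESeq2 called 37, and the cause was not tested. Leaving out each library in turn gave 0 to 1 called genes. With the replicate block the count was 0, with 552 genes under 0.05 unadjusted and a smallest adjusted p of 0.999. Same-numbered libraries did not deviate together (correlations −0.0301 to 0.0739), so the numbers were not taken as pairs. The median CV was 29.88% with genes of at least 10 CPM and 12.96% with genes of at least 1000 CPM, since these take in lower or only higher levels, against 18.2%, and it ran from 16.65% to 18.46% with each library left out. The share of the top 10 genes ran from 15.79% to 16.13% and that of the top 100 from 37.68% to 38.03% in the same way. Under TMM factors the median sums of 56 lists moved by at most 3.56% (median 1.12%), and without both libraries that stood apart by at most 19.5%, for erythrocyte markers (median 0.381%). A level under 3 counts (0.211 to 0.336 CPM) cannot be told from 0 at this depth.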
